A study of Mus musculus with 5 samples.

Results

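Heat shock proteins and their DnaJ (J protein) cochaperones were followed in microdissected mouse hypothalamus after electroconvulsive shock (ECS). The set holds the genes whose symbol in the array annotation starts with Hsp followed by a, b, d, e, h or 90, or with Dnaja, Dnajb or Dnajc. This rule gave 61 genes, measured by 122 probe sets, of 12393 genes on the array, and 51 of the 61 passed a filter on brightness that 6650 genes passed in all. A further gene, Hsp90ab1, has no probe set of its own in the annotation used and was not analysed here.

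The series measured RNA on Affymetrix mouse arrays in C57Bl/6 mice that had ear-clip stimulation or sham handling under isoflurane anaesthesia. The 5 groups were 7 shocks collected at 6 h or at 2 h, 1 shock collected at 6 h or at 2 h, and sham handling without shock collected at 2 h. Each group was 1 array of RNA pooled from 2 or 3 mice, obtained by laser microdissection and amplified before labelling. The series describes a repeat with other animals, whose arrays were not used here. The pools have no replicate, so no difference below has an error or a test, and a gene was called by size alone, at a log2 difference of at least 1 (2-fold). The sham tissue was taken at 2 h, so the comparisons of 6 h with sham are not matched in time. The titles name the ventromedial hypothalamus (VMH) whereas the description fields name the PVN.

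Heat shock proteins are molecular chaperones that bind unfolded or partly folded proteins. The Hsp70 proteins hold clients in a cycle of ATP binding and hydrolysis, J proteins deliver the clients and stimulate the hydrolysis, Hsp110 proteins exchange the nucleotide, and Hsp90 proteins act late in folding. The stress-inducible genes among them are known to be switched on by heat shock factor 1, which binds repeated GAA units in promoters called heat shock elements. In brain they are known as responders to seizure, ischaemia and other proteotoxic stress, while many of the constitutive forms are abundant in neurons.

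The values are readings, that is, the deposited signal plus a pseudocount of 1.2, scaled so that the arrays have a common median. Before scaling, the array medians of the deposited signal were 30.9 (7 shocks, 6 h), 31.6 (7 shocks, 2 h), 26.9 (1 shock, 6 h), 20.3 (1 shock, 2 h) and 23.4 (sham). The 3' to 5' ratio of the Gapdh controls, a measure of RNA integrity, ranged over 5.37 to 8.77, with the highest ratio on the array of 1 shock at 2 h. The ratio of the beta-actin controls was highest on the array of 1 shock at 6 h, at 1.10 against 0.593 to 0.889 on the other 4 arrays. Fos, an immediate early gene, had readings of 25.5 (7 shocks, 6 h), 75.6 (7 shocks, 2 h), 23.3 (1 shock, 6 h), 185 (1 shock, 2 h) and 12.6 (sham). Of 7 VMH markers 6 were on the array and 4 passed the filter. Nr5a1, a transcription factor that marks the VMH, had readings of 130, 123, 158 and 67.3 on the ECS arrays in the same order, against 94.8 in sham. The 4 markers differed among themselves, and their summed readings were 2541, 2792, 3101 and 2077, against 1909 in sham. The array of 1 shock at 6 h stood apart in Tbr1, a marker of cortical and amygdalar excitatory neurons, at 1.9 against 63.9 to 132 on the other 4 arrays. Of 3 such markers on the array only Tbr1 passed the filter, and its reading of 1.9 is close to the pseudocount. Summed neuronal markers (9 of 9 past the filter) ranged over 14062 to 16212 on the ECS arrays against 13531 in sham, and summed astrocyte markers (8 of 8) over 4078 to 4763 against 4352. Summed arcuate markers (4 of 5) were 1047, 618, 668 and 558 on the ECS arrays, against 785 in sham. Summed microglial markers (6 of 8) were 1589 to 1695 against 1719, although among them Csf1r was 227 to 357 on the ECS arrays against 653 in sham, and P2ry12 was 14.5 to 41.0 against 68.7. Summed oligodendrocyte markers (6 of 7) spanned 5405 to 6227 over the 5 arrays. Of 2 ependymal markers 1 passed the filter, Rarres2, which spanned 43 to 78. Whether these differences moved the results below was not tested. In bulk tissue, fewer cells of a type and less RNA per cell cannot be told apart.

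The members past the filter were called about as often as other genes. Higher calls outnumbered lower ones in all 4 comparisons with sham, except that they were equal after 1 shock at 2 h without rescaling and after 7 shocks at 2 h with a larger pseudocount, and that among the brightest 25% of probe sets there were 0 higher and 2 lower after 1 shock at 6 h and no calls after 7 shocks. After 7 shocks at 6 h, 5 of 51 members were at least 2-fold higher than sham and 0 lower, against 6.78% and 7.07% of all genes. After 7 shocks at 2 h, 4 were higher and 2 lower, against 6.57% and 6.72% of all genes. After 1 shock at 6 h, 6 were higher and 2 lower, against 6.74% and 7.35% of all genes. The 6 include Hspa1l, which passed the filter only through this array. After 1 shock at 2 h, 5 were higher and 1 lower, against 5.98% and 6.29% of all genes. A single gene is 1.96% of the 51 members, so the higher counts lie within 3 genes of the background share and the lower counts within 4 genes of it. The median log2 difference from sham over the 51 members was 0.11, 0.07, 0.17 and 0.16 in the same order, against 0.01, 0.01, 0.06 and 0.01 over all genes. Without rescaling, the same arrays shifted as a whole against sham by 0.48, 0.50, 0.40 and -0.13 log2. The higher and lower members were then 10 and 0, 9 and 1, 10 and 1, and 2 and 2. Of all genes, 19.8%, 19.9%, 17.0% and 4.38% were then higher, and 2.54%, 2.15%, 3.47% and 8.60% lower. Quantile normalization gave 5 higher and 1 lower after 7 shocks at 2 h, against 7.10% and 6.75% of all genes. After 1 shock at 6 h it gave 5 higher and 3 lower, against 7.32% and 6.50%. Trimmed mean scaling also gave 5 and 3 there, against 5.77% and 8.53%.

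**Figure D1:**
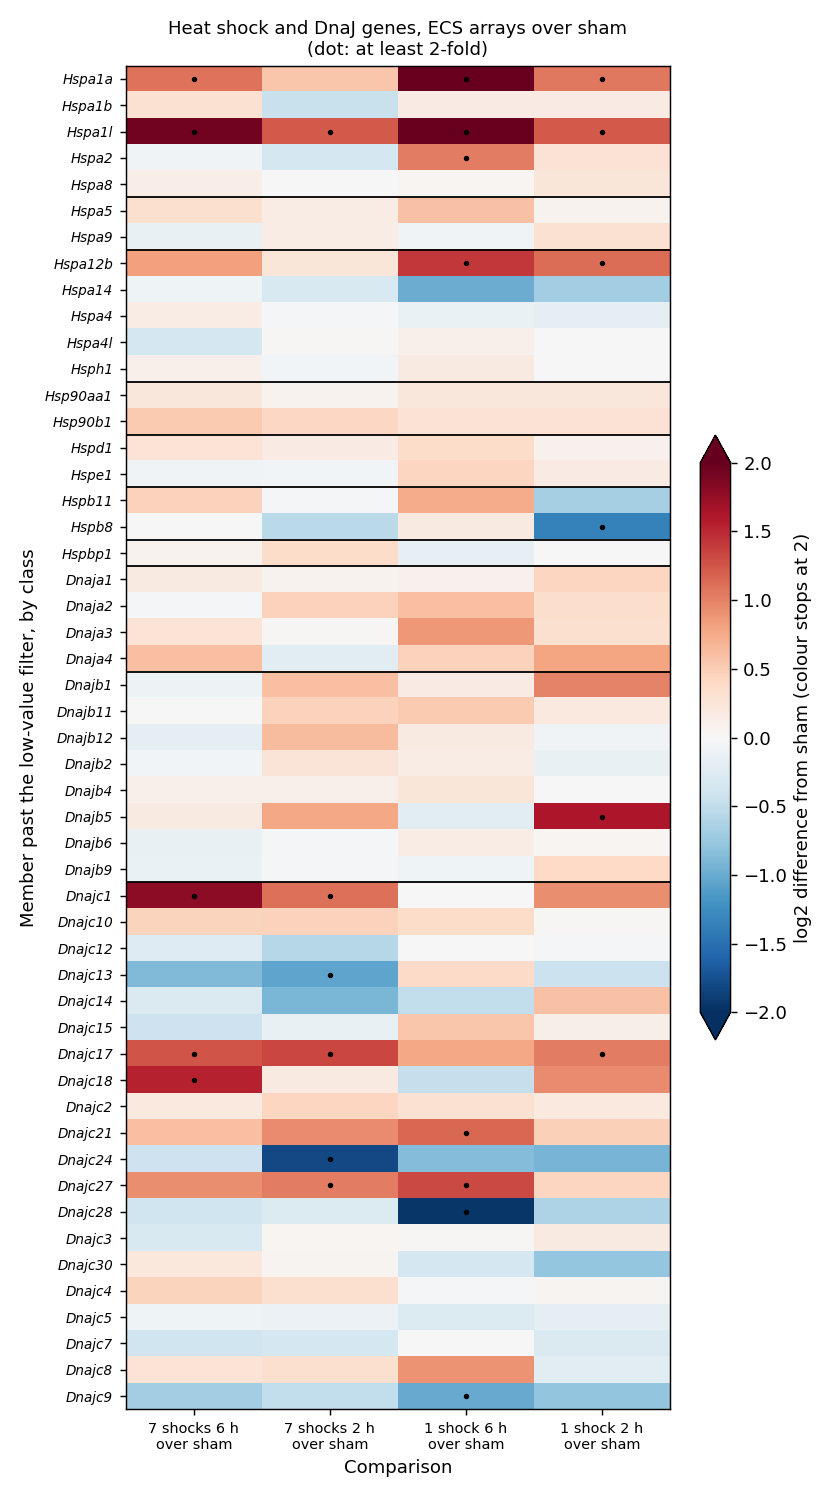
Log2 difference from sham of the 51 members past the filter (down the page, by role) on the 4 ECS arrays (across), 1 array per group, with red higher and blue lower than sham, colour stopping at 2 log2 and a dot at 2-fold or more. The strongest red cell is Hspa1l after 1 shock at 6 h, at 3.83, and most cells of the bright chaperones are pale.

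Hspa1a, Hspa1b and Hspa1l lie side by side on chromosome 17 between Neu1 and Lsm2 in RefSeq's gene order. Hspa1a and Hspa1b encode the stress-inducible cytosolic Hsp70, and Hspa1l encodes a close relative known mainly from testis. The promoters of Hspa1a and Hspa1b are shown because the genes are known as near-identical copies that probe sets can confuse. In the promoter window, 296 of the 300 bases from 250 before to 50 after the start are the same. Both are on the minus strand of GRCm38.p6, from RefSeq, at chr17:34972107-34972406 for Hspa1a and chr17:34959189-34959488 for Hspa1b. Capitals mark the heat shock element of 2 units, GAANNTTC, which starts 104 bases before each gene start.
Hspa1a: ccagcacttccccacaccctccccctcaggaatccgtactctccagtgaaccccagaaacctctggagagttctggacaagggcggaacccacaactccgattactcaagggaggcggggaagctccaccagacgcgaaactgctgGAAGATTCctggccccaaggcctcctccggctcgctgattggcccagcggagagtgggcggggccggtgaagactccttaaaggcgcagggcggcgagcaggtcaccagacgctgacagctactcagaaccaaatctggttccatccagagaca
Hspa1b: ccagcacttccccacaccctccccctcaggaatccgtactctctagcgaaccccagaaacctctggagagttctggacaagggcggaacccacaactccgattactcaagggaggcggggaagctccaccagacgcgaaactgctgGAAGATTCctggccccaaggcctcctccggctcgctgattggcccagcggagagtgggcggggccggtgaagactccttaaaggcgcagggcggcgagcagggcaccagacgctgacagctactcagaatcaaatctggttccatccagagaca

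Hspa1a had readings of 50.7 (7 shocks, 6 h), 35.1 (7 shocks, 2 h), 106 (1 shock, 6 h) and 49.4 (1 shock, 2 h), against 23.8 in sham. It was lowest in sham and highest 6 h after 1 shock, with log2 differences from sham of 1.09, 0.56, 2.16 and 1.05 in that order. Hspa1l had readings of 37.7 (7 shocks, 6 h), 23.1 (7 shocks, 2 h), 141 (1 shock, 6 h) and 23.1 (1 shock, 2 h), against 9.88 in sham. Its log2 differences were 1.93, 1.23, 3.83 and 1.22, so Hspa1l was at least 2-fold above sham on all 4 ECS arrays and Hspa1a on 3 of them. A pseudocount of 6.1 in place of 1.2 brought Hspa1a to 0.91 (7 shocks, 6 h) and 0.91 (1 shock, 2 h), below 2-fold, and Hspa1l to 0.82 (7 shocks, 2 h) and 0.90 (1 shock, 2 h).

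Hspa1b depended on the probe set. Its brightest probe set had readings of 87.7 (7 shocks, 6 h), 52.2 (7 shocks, 2 h), 79.6 (1 shock, 6 h) and 79.0 (1 shock, 2 h), against 70.8 in sham, with log2 differences of 0.31, -0.44, 0.17 and 0.16. A pair of dimmer Hspa1b probe sets did not pass the filter. The first had deposited signals of 23.7 (7 shocks, 6 h), 6.4 (7 shocks, 2 h), 15.9 (1 shock, 6 h) and 7.8 (1 shock, 2 h), against 2.0 in sham. The second had 21.3, 5.6, 41.7 and 12.4 in the same order, against 2.9 in sham. In deposited signal, which is not scaled, all 5 probe sets of the 3 genes were lowest in sham. Without rescaling, 30.6% of all genes past the filter were lowest in sham. Divided by the array median, the brightest Hspa1b probe set was instead lowest after 7 shocks at 2 h, at 1.93 against 2.49 in sham. Hspa1a and Hspa1b are known as near-identical copies, but the sequences of their transcripts and probes were not compared. The RNA behind each of their probe sets is therefore not known here. The deposited signal of Hspa1l in sham was 7.1, under the array median of 23.4, so its folds rest on a dim value, and Hspa1l passed the filter only with the array of 1 shock at 6 h.

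**Figure D2:**
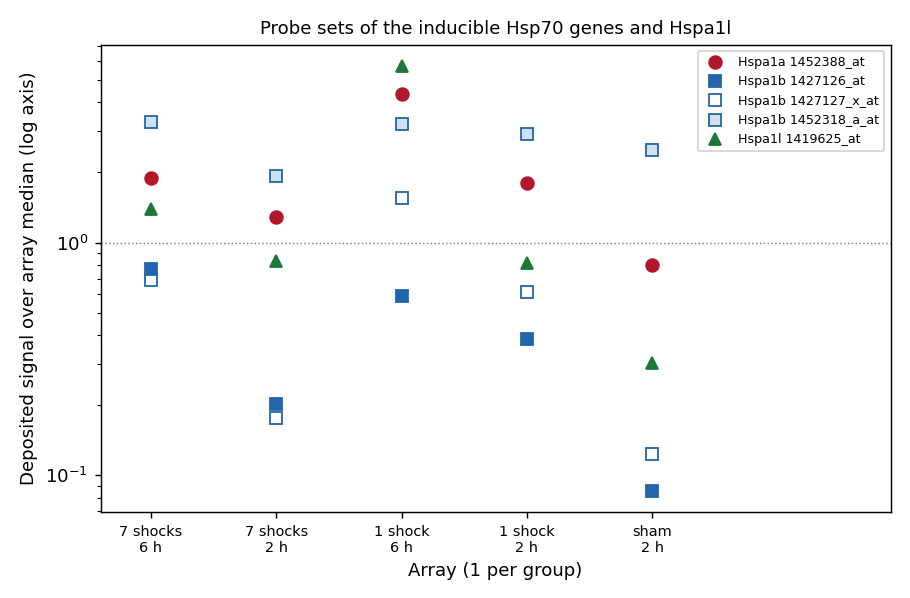
Deposited signal of the 5 probe sets of Hspa1a, Hspa1b and Hspa1l divided by the median signal of each array (log axis), 1 point per array, where heights are to be compared within a probe set. The Hspa1a and Hspa1l probe sets and the pair of dim Hspa1b probe sets are lowest in sham, and Hspa1a, Hspa1l and 1 of the dim Hspa1b probe sets are highest 6 h after 1 shock.

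The other cytosolic Hsp70 genes differed in the array on which they were highest. Hspa2, a form abundant in testis and also present in brain, had readings of 265 (7 shocks, 6 h), 219 (7 shocks, 2 h), 568 (1 shock, 6 h) and 340 (1 shock, 2 h), against 280 in sham. It was apart from sham only 6 h after 1 shock, by 1.02 log2 on 1 probe set, and by 0.91 after quantile normalization and 0.94 after trimmed mean scaling. Hspa8, the constitutive Hsc70, had readings of 5449 (7 shocks, 6 h), 4918 (7 shocks, 2 h), 5106 (1 shock, 6 h) and 5866 (1 shock, 2 h), against 4952 in sham. These span 0.25 log2. Its 3 other probe sets past the filter also exceeded sham after 1 shock at 2 h, by 0.12 to 0.21 log2, except the dimmest without rescaling (-0.02).

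Hspa5 (BiP or Grp78) is the Hsp70 of the endoplasmic reticulum and a standard readout of the unfolded protein response. Its promoter is shown for the endoplasmic reticulum stress element, CCAAT and CCACG with NNNNNNNNN between them, in capitals, which starts 65 bases before the gene start. The window is chr2:34771840-34772139 on the plus strand of GRCm38.p6, from RefSeq.
Hspa5: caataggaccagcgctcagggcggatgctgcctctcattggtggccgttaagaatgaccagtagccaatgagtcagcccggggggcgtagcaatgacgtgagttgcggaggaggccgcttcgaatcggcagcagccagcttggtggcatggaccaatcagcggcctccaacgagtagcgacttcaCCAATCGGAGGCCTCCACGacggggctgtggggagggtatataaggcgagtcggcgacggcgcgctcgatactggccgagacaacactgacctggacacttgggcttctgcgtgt

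Hspa5 had readings of 1054 (7 shocks, 6 h), 931 (7 shocks, 2 h), 1260 (1 shock, 6 h) and 877 (1 shock, 2 h), against 840 in sham. The brightest probe set was above sham on all 4 ECS arrays, by 0.33, 0.15, 0.59 and 0.06 log2, though the last value was -0.07 without rescaling and -0.02 after quantile normalization. Its other probe set stayed within 0.09 log2 of sham. Hspa9 (mortalin), the mitochondrial Hsp70 that pulls proteins through the inner membrane, had readings of 624 (7 shocks, 6 h), 766 (7 shocks, 2 h), 663 (1 shock, 6 h) and 858 (1 shock, 2 h), against 693 in sham. Hspa9 was highest 2 h after 1 shock on its brightest probe set, by 0.31 log2 against sham, and its other probe set was 0.40 higher there. That other probe set was highest after 7 shocks at 6 h, at 0.43, where the brightest was -0.15. After 7 shocks at 2 h it was -0.25, where the brightest was 0.15.

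Of the 5 Hsp110 and divergent Hsp70 genes, Hspa12b was at least 2-fold higher than sham on 2 arrays. Hspa12b, a divergent form known from endothelium, had readings of 69.8 (7 shocks, 6 h), 46.6 (7 shocks, 2 h), 105 (1 shock, 6 h) and 85.3 (1 shock, 2 h), against 39.4 in sham. Its log2 differences were 0.83, 0.24, 1.41 and 1.11, so it was lowest in sham. Summed endothelial and pericyte markers (4 of 8 past the filter) were 209, 192, 268 and 206 on the same arrays, against 211 in sham, so this sum too was highest 6 h after 1 shock, and its part in the Hspa12b value was not tested. Hsph1 (Hsp105), an Hsp110 exchange factor, had readings of 2606, 2333, 2727 and 2443 against 2419 in sham, a span of 0.23 log2. Hspa4 (Apg-2) had readings of 1320, 1174, 1091 and 1037, against 1193 in sham, on its brightest probe set. Its other probe sets disagreed with that one and were higher than sham by 0.65 and 0.82 log2 after 1 shock at 2 h, where the brightest was -0.20. Hspa4l (Apg-1) spanned 173 to 236 over the 5 arrays, and Hspa14, a ribosome-associated Hsp70, 105 to 209 with its highest reading in sham. The dimmer Hspa14 probe set was also highest in sham but differed in size. It was -2.12 log2 after 7 shocks at 6 h, where the brightest was -0.08, and -1.38 after 1 shock at 6 h, where the brightest was -0.99.

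The Hsp90 genes differed little from sham. Hsp90aa1, the inducible cytosolic form, had readings of 1715 (7 shocks, 6 h), 1551 (7 shocks, 2 h), 1715 (1 shock, 6 h) and 1720 (1 shock, 2 h), against 1473 in sham. All 3 of its probe sets were above sham on all 4 ECS arrays, by 0.02 to 0.45 log2, but the third of them was below sham under another scaling on 3 arrays, by at most -0.13 log2. Hsp90b1 (Grp94), the form of the endoplasmic reticulum, had readings of 867 (7 shocks, 6 h), 797 (7 shocks, 2 h), 734 (1 shock, 6 h) and 732 (1 shock, 2 h), against 600 in sham. Both of its probe sets were above sham on all 4 ECS arrays, with the brighter at 0.53, 0.41, 0.29 and 0.29 log2, though the dimmer was -0.06 after 1 shock at 6 h with quantile normalization and -0.01 with trimmed mean scaling. None of these differences reached 2-fold, and without an error they cannot be set against the spread between pools.

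Hspd1 (Hsp60) and Hspe1 (Hsp10) encode the mitochondrial chaperonin and its lid, and share a bidirectional promoter on chromosome 1. The Hspd1 window, chr1:55087883-55088182 on the minus strand, overlaps the Hspe1 window by 285 bases. It is shown with the Hsph1 window (chr5:149636287-149636586, minus strand) and the Dnajb6 window (chr5:29735648-29735947, plus strand). Among the 50 members with a promoter window, these genes and Hspe1 were the ones with a heat shock element of 3 units, in capitals. Such an element is GAA, TTC and GAA, or TTC, GAA and TTC, each separated by NN. The matches start 144 and 139 bases before the start of Hspd1, where they overlap each other, 46 before that of Dnajb6 and at base 37 of Hsph1. All 3 are from RefSeq, GRCm38.p6.
Hspd1: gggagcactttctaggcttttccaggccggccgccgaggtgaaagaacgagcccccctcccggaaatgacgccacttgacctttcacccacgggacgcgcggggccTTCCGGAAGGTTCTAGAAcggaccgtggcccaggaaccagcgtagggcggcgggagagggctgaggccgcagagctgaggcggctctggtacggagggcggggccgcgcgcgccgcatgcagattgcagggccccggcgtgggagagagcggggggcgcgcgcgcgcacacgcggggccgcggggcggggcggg
Hsph1: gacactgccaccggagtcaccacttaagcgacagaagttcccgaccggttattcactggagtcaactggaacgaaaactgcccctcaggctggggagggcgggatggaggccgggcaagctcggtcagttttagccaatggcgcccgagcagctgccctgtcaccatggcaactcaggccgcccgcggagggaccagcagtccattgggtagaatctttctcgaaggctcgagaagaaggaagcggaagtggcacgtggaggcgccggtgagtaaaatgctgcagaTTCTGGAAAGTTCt
Dnajb6: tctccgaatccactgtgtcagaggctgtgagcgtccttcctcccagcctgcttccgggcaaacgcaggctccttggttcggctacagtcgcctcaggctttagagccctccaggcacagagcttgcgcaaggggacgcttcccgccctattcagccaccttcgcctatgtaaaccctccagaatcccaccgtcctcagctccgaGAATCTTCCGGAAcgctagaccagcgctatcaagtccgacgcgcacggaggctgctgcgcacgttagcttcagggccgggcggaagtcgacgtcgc

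Hspd1 had readings of 1167 (7 shocks, 6 h), 1070 (7 shocks, 2 h), 1236 (1 shock, 6 h) and 1018 (1 shock, 2 h), against 960 in sham. It was above sham on all 4 arrays, by 0.28, 0.16, 0.36 and 0.08 log2, the last turning to -0.05 without rescaling and -0.01 after quantile normalization. Hspe1 had readings of 1044, 1058, 1475 and 1221, against 1094 in sham. Its brightest probe set was above sham after 1 shock at 6 h (0.43 log2) and at 2 h (0.16) and, except without rescaling, slightly below it after 7 shocks, whereas its dimmer probe set was above sham on all 4 arrays, by 0.42 to 0.86.

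**Figure D3:**
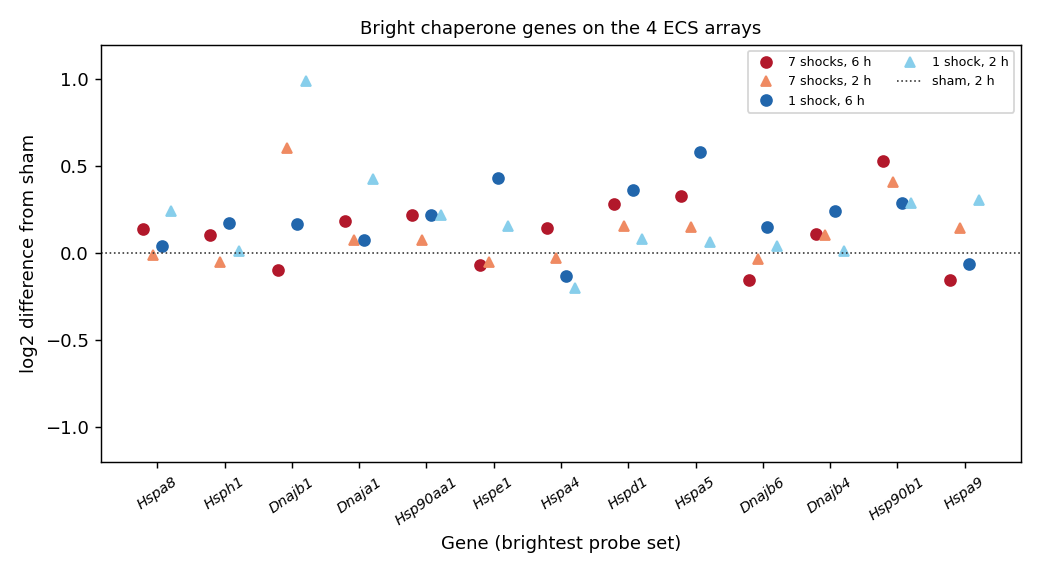
Log2 difference from sham (dotted line) on the brightest probe set of the 13 members with a geometric mean signal over 700, brightest first, with 1 point for each ECS array, so no error can be drawn. The points of Dnajb1 reach 0.99 and those of the other 12 genes lie between -0.20 and 0.59, and Hsp90aa1, Hsp90b1, Hspa5, Hspd1, Dnaja1 and Dnajb4 have all 4 above sham, although other scalings put 1 point of Hspa5, Hspd1, Dnaja1 and Dnajb4 below it.

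Small heat shock proteins are holdases that bind unfolding proteins without ATP. Of the 6 genes placed in this class by symbol, 2 passed the filter. Hspb8 (Hsp22), a partner of Bag3 in the disposal of misfolded proteins, had readings of 78.7 (7 shocks, 6 h), 54.2 (7 shocks, 2 h), 88.5 (1 shock, 6 h) and 30.9 (1 shock, 2 h), against 78.5 in sham. It was at least 2-fold lower 2 h after 1 shock (-1.35 log2) and close to sham on the 6 h arrays (0.00 and 0.17). Hspb11 (Ift25), an intraflagellar transport protein in spite of its symbol, had readings of 201, 143, 244 and 92.7, against 146 in sham. It was also lowest 2 h after 1 shock, by -0.66 log2. That array had the highest Gapdh 3' to 5' ratio, whose part in these values was not tested. Hspb1 (Hsp25), the stress-inducible small heat shock protein, lay just under the filter, with deposited signals between 1.5 and 40.0. Hspbp1, an Hsp70 exchange factor, had readings of 34.7 to 50.3.

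The 4 DNAJA proteins are J proteins of the DnaJ type. Dnaja1 (Hdj2) had readings of 1687 (7 shocks, 6 h), 1562 (7 shocks, 2 h), 1567 (1 shock, 6 h) and 1997 (1 shock, 2 h), against 1483 in sham. Both probe sets were above sham on all 4 arrays, the brighter by 0.07 to 0.43 log2 and the dimmer by 0.42 to 0.78, except that the brighter was -0.13 after 1 shock at 6 h with quantile normalization and just below 0 with trimmed mean scaling. Dnaja3 (Tid1), the mitochondrial form, was highest 6 h after 1 shock at 193, against 105 in sham, on its brightest probe set. The other probe set of Dnaja3 disagreed and was highest after 7 shocks, at 56.3 (6 h) and 52.0 (2 h), with 22.9 after 1 shock at 6 h, against 22.3 in sham. Dnaja2 was 274, 386, 423 and 357 on the ECS arrays, against 279 in sham, and its other probe set gave a different order. Dnaja4 had readings of 82.7, 47.1, 75.5 and 94.3, against 54.7 in sham. No DNAJA gene reached 2-fold against sham on its brightest probe set.

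Dnajb1 and Dnajb5 were the members whose brightest probe sets were higher at 2 h than at 6 h by at least 0.5 log2 after both numbers of shocks. Dnajb1 (Hsp40) is the stress-inducible partner of Hsp70 and a known target of heat shock factor 1. It had readings of 1793 (7 shocks, 6 h), 2916 (7 shocks, 2 h), 2153 (1 shock, 6 h) and 3804 (1 shock, 2 h), against 1915 in sham. Against sham these were 0.99 log2 after 1 shock at 2 h, just under 2-fold, and 0.61 after 7 shocks at 2 h, while the 6 h arrays were within 0.17 of sham. The dimmer Dnajb1 probe set had deposited signals, before scaling, of 45.0, 126.9, 51.6 and 67.8 in the same order, against 27.6 in sham. In scaled readings it was 1.65 and 1.39 log2 above sham at 2 h after 7 shocks and 1 shock.

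Dnajb5 (Hsc40), a J protein of brain and heart, had readings of 226 (7 shocks, 6 h), 340 (7 shocks, 2 h), 171 (1 shock, 6 h) and 615 (1 shock, 2 h), against 200 in sham. The reading 2 h after 1 shock was the highest, at 1.62 log2 over sham, followed by that 2 h after 7 shocks, at 0.77. Its second probe set had readings of 76.7, 160, 115 and 220 in the same order, against 106 in sham. The third had 32.9, 67.0, 37.7 and 106, against 62.7 in sham. Both probe sets of Dnajb1 and all 3 of Dnajb5 were above sham on both 2 h arrays and lower at 6 h than at 2 h after each number of shocks, and each of these signs was the same without rescaling, after quantile normalization and with trimmed mean scaling. The size was not: without rescaling the 6 h over 2 h difference of Dnajb1 after 1 shock was -0.29, so only Dnajb5 then passed 0.5 log2 after both numbers of shocks, against 1.89% of all genes. The 6 h over 2 h difference of the brightest probe set was -0.70 after 7 shocks and -0.82 after 1 shock for Dnajb1, and -0.59 and -1.84 for Dnajb5. Over all genes, 4.45% were lower at 6 h by at least 0.5 log2 after both numbers of shocks, and 2 of the 51 members is 3.92%.

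**Figure D4:**
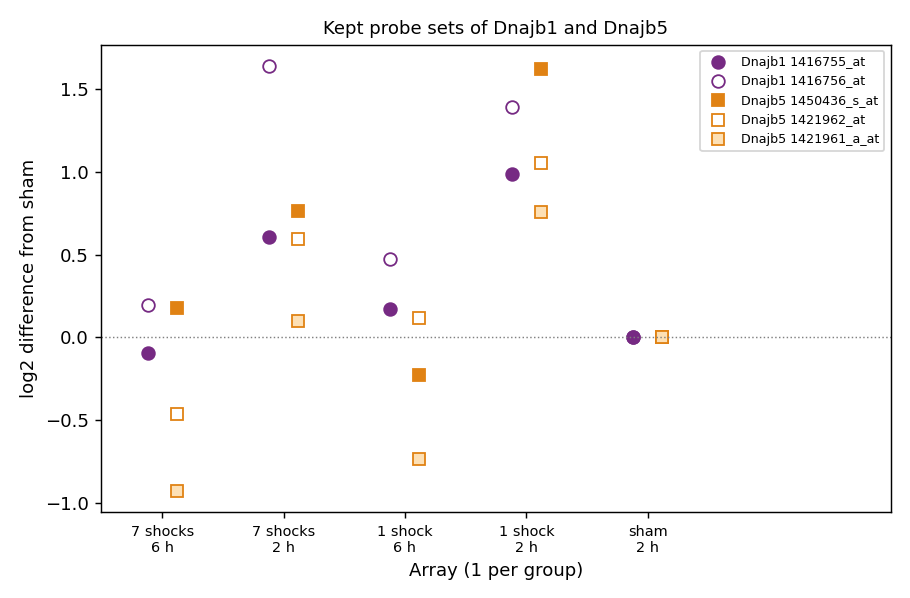
Log2 difference from sham (dotted line, sham at 0) of the 2 Dnajb1 and 3 Dnajb5 probe sets past the filter on each array, 1 point per array and probe set. In every probe set the 2 h arrays lie above sham and above the 6 h array of the same number of shocks.

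The brightest probe sets of the other DNAJB genes varied less. Dnajb4, also a heat-inducible J protein, had readings of 793 (7 shocks, 6 h), 791 (7 shocks, 2 h), 871 (1 shock, 6 h) and 740 (1 shock, 2 h), against 735 in sham. The dimmer Dnajb4 probe set varied more and was 0.91 log2 above sham after 1 shock at 2 h, and 1 of the dimmer Dnajb6 probe sets was 0.68 above sham there. Dnajb9 (ERdj4), of the endoplasmic reticulum, was highest 2 h after 1 shock, at 530 against 402 in sham. Dnajb6, a brain-enriched suppressor of aggregation, spanned 873 to 1081, and Dnajb2, a neuronal J protein, 555 to 735. Dnajb11 (ERdj3) had 255 to 367 and Dnajb12 24.9 to 44.2.

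The 20 DNAJC genes past the filter, the most diverse class of J protein, held 11 genes with a range of at least 1 log2 over the 5 arrays, and most of them were dim. Dnajc1, a J protein of the endoplasmic reticulum, had readings of 77.9 (7 shocks, 6 h), 48.3 (7 shocks, 2 h), 22.7 (1 shock, 6 h) and 43.2 (1 shock, 2 h), against 22.6 in sham. Its second probe set was above sham on all 4 ECS arrays, at 1.41, 0.31, 0.83 and 1.15 log2. Dnajc17, a splicing-associated J protein, had readings of 62.8 (7 shocks, 6 h), 66.6 (7 shocks, 2 h), 45.3 (1 shock, 6 h) and 53.5 (1 shock, 2 h), against 26.4 in sham, and was lowest in sham by 0.78 to 1.33 log2. A dimmer Dnajc17 probe set under the filter was not lowest in sham. Its deposited signals were 33.4, 17.2, 32.9 and 10.9 in the same order, against 29.0 in sham. Dnajc27 (Rbj), a small GTPase with a J domain, had readings of 53.5, 57.0, 70.6 and 37.8, against 28.2 in sham, but its other probe set was higher by at most 0.44 log2. Dnajc21 had readings of 47.3, 59.7, 69.0 and 43.4, against 31.2 in sham. Its orthologue is known from ribosome assembly in yeast.

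On their brightest probe sets, Dnajc24, Dnajc28 and Dnajc9 were highest in sham, although without rescaling Dnajc24 was slightly above sham after 7 shocks at 6 h (0.07 log2), Dnajc28 after 7 shocks at 2 h (0.22) and at 6 h (0.09), and Dnajc9 after 7 shocks at 2 h (0.01). A Dnajc28 probe set under the filter had deposited signals of 12.4 (7 shocks, 6 h), 43.9 (7 shocks, 2 h), 13.8 (1 shock, 6 h) and 10.9 (1 shock, 2 h), against 28.3 in sham. A Dnajc24 probe set under the filter had 25.9, 4.7, 22.2 and 26.8 in that order, against 25.2 in sham. Dnajc24 (Dph4), of diphthamide synthesis, had readings of 44.1 (7 shocks, 6 h), 16.9 (7 shocks, 2 h), 32.2 (1 shock, 6 h) and 30.9 (1 shock, 2 h), against 58.7 in sham. Dnajc28 had readings of 37.5 (7 shocks, 6 h), 40.7 (7 shocks, 2 h), 12.8 (1 shock, 6 h) and 32.3 (1 shock, 2 h), against 49.4 in sham. Dnajc9, a histone-binding cochaperone, had readings of 179, 206, 143 and 167, against 290 in sham, and was the brightest of these 3 genes. Dnajc14, on its brightest probe set, had readings of 76.5, 49.1, 65.8 and 140, against 92.9 in sham, while the third probe set was lower than sham by 1.24 to 2.43 log2 on all 4 ECS arrays. Dnajc13 (Rme-8), an endosomal J protein, had readings of 19.2, 17.1, 46.2 and 26.3, against 35.5 in sham, and passed the filter only with the array of 1 shock at 6 h. Dnajc5 (CSP-alpha), a J protein of synaptic vesicles, had readings of 374 to 428 on the ECS arrays, against 452 in sham, on its brightest probe set. Of its 4 other probe sets past the filter, 3 were above sham on all 4 ECS arrays, by 0.18 to 1.07 log2.

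The other 9 DNAJC genes past the filter did not reach 2-fold against sham on their brightest probe set. Dnajc10 (ERdj5), a disulfide reductase of the endoplasmic reticulum, spanned readings of 184 to 253. A dimmer Dnajc10 probe set had readings of 29.3 (7 shocks, 6 h), 41.4 (7 shocks, 2 h), 30.0 (1 shock, 6 h) and 104 (1 shock, 2 h), against 14.6 in sham, so it was 2.83 log2 above sham on the last of these arrays where the brightest was 0.02. Dnajc3 (p58IPK), an inhibitor of the kinase PERK, spanned 85.3 to 119, and Dnajc7 (Tpr2), which binds Hsp70 and Hsp90, 496 to 658. Dnajc8, a splicing-associated J protein, spanned 205 to 442. The ranges were 233 to 315 for Dnajc2 (zuotin), 69.9 to 105 for Dnajc12, 204 to 398 for Dnajc15, 110 to 218 for Dnajc30 and 60.3 to 84.7 for Dnajc4. Dnajc18, the remaining gene of the class, had readings of 70.6 (7 shocks, 6 h), 27.5 (7 shocks, 2 h), 17.7 (1 shock, 6 h) and 46.8 (1 shock, 2 h), against 24.3 in sham.

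Between numbers of shocks, 0 of 51 members were at least 2-fold higher and 2 lower after 7 shocks than after 1 at 2 h, against 6.92% and 6.83% of all genes. The lower genes were Dnajc14 (-1.51 log2) and Dnaja4, which stood at the 2-fold limit. Without rescaling this comparison gave 11 higher and 0 lower, against 26.6% and 1.56% of all genes. At 6 h, 3 were higher and 4 lower, against 7.91% and 8.59% of all genes. Dnajc18 (2.00 log2), Dnajc1 (1.78) and Dnajc28 (1.55) were higher after 7 shocks, whereas Hspa1l (-1.90), Dnajc13 (-1.26), Hspa2 (-1.10) and Hspa1a (-1.07) were lower. Hspa1l and Dnajc13 passed the filter only through the array of 1 shock at 6 h, so their places among the lower genes were favoured by the filter. This pair of comparisons, at 2 h and at 6 h, shares no array.

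Between times, 5 of 51 members were at least 2-fold higher and 4 lower at 6 h than at 2 h after 1 shock, against 7.41% and 7.59% of all genes. The higher genes were Hspa1l (2.61 log2), Hspb8 (1.52), Hspb11 (1.40), Dnajc8 (1.11) and Hspa1a (1.11), and the lower were Dnajb5 (-1.84), Dnajc18 (-1.40), Dnajc28 (-1.33) and Dnajc14 (-1.09). Without rescaling, 11 were higher and 1 lower, against 23.7% and 2.63% of all genes. After 7 shocks, 2 were higher, Dnajc24 (1.39) and Dnajc18 (1.36), and 0 lower, against 6.3% and 6.65% of all genes. Hspa1a, Hspa1l and Hspb8 were at least 0.5 log2 higher at 6 h after both numbers of shocks, which is 3 of 51 members against 4.84% of all genes. Hspa1l passed the filter only through the array of 1 shock at 6 h. Its place here, and among the 5 higher after 1 shock, was therefore set by the filter. Of these 3 members, 2 remain without it. Without rescaling 6 members, these 3 with Dnajc24, Hspa12b and Hspa1b, reached this limit, against 9.55% of all genes. The limit of 0.5 was chosen after the values were seen. Among the VMH markers Nr5a1 was also 1.23 log2 higher at 6 h than at 2 h after 1 shock, where the summed VMH markers were 3101 and 2077, and the bearing of these markers on the members was not tested.

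**Figure D5:**
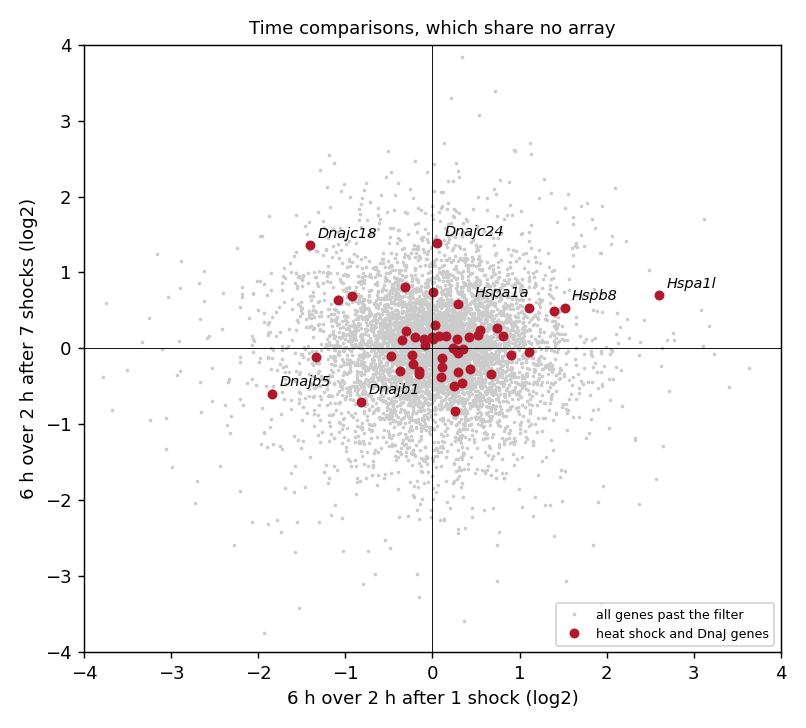
Log2 difference of 6 h over 2 h after 1 shock (horizontal) and after 7 shocks (vertical) for all genes (grey) and the members past the filter (red), with limits of 4 log2 either way that leave out 5 genes. Dnajb1 and Dnajb5 lie to the lower left and Hspa1a, Hspa1l and Hspb8 to the upper right, while Dnajc18 has opposite signs.

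Across the 5 arrays the members varied less than other genes. Their range had a median of 0.75 log2, against 0.98 over all genes, and 20 of 51 members, against 3213 of 6650 genes, had a range of at least 1. Among the brightest 25% of probe sets the medians were 0.49 over 32 members and 0.74 over 3516 genes. By role, the median range was 0.38 for Hsp90, 0.43 for the chaperonin, 0.45 for Hsp110 and divergent Hsp70, 0.52 for organelle Hsp70, 0.53 for DNAJB, 0.75 for DNAJA, 1.06 for DNAJC and 1.37 for cytosolic Hsp70. It was 1.46 for Hspb8 and Hspb11, the 2 genes placed with the small heat shock proteins by symbol. Members were most often highest on the array of 1 shock at 6 h and most often lowest in sham. The array of 1 shock at 6 h was the highest for 23 of 51 members, or 45.1%, against 25.6% of all genes. Hspa1l and Dnajc13 passed the filter only through this array, and without them the count was 21 of 49, or 42.9%. Without rescaling it was 19 of 51, or 37.3%, against 29.6% of all genes, and after quantile normalization 18, or 35.3%, against 22.9%. This array also had the highest beta-actin 3' to 5' ratio, whose part in the count was not tested. The arrays of 7 shocks (6 h, then 2 h), 1 shock at 2 h and sham were the highest for 7, 6, 10 and 5, against 20.6%, 18.0%, 19.0% and 16.8% of all genes. Sham was the lowest for 16, or 31.4%, against 19.8%, and with trimmed mean scaling for 12, or 23.5%, against 17.1%. The arrays of 7 shocks (6 h, then 2 h) and of 1 shock (6 h, then 2 h) were the lowest for 12, 9, 8 and 6, against 21.2%, 20.1%, 19.1% and 19.9%. In the 25 members with several probe sets past the filter, only the 2 brightest probe sets were compared. These had the same sign in 20 members (80.0%) after 1 shock at 6 h, against 56.5% of all such genes. After 1 shock at 2 h they had it in 20 (80.0%), against 56.6%. After 7 shocks the counts were 15 (60.0%) at 6 h and 14 (56.0%) at 2 h, against 57.0% and 57.8%. In the 4 comparisons between ECS arrays the members had the same sign less often than all such genes, at 44.0% to 52.0% against 56.1% to 59.6%.

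Promoter windows, from 250 bases before to 50 after the start, were found for 50 of the 61 members. Dnajb1, Dnajb5 and Hspa1l were among the members without a window, so they were not searched for any element. The heat shock element of 3 units was in 4 of the 50 (8.0%), the genes Dnajb6, Hspd1, Hspe1 and Hsph1, against 0.662% of 27025 genes. Hspd1 and Hspe1 share their element, since their windows overlap. The 2-unit form, GAANNTTC or TTCNNGAA, which lies inside every 3-unit match, was in 14 of the 50 (28.0%), against 16.973% of all genes. The endoplasmic reticulum stress element was in 3 of the 50 (6.0%), the genes Dnajc3, Hsp90b1 and Hspa5, against 0.137%. All were searched on both strands, with N for any base. Among the members past the filter, 12 with a 2-unit element had median log2 differences from sham of 0.23 (7 shocks, 6 h), 0.02 (7 shocks, 2 h), 0.31 (1 shock, 6 h) and 0.12 (1 shock, 2 h), against -0.03, 0.15, 0.17 and 0.12 for 31 without. A match is a run of letters, and no binding was measured.

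Of the 61 members, 10 did not pass the filter. Just outside it were Hspb1 and Dnajc11, with geometric mean signals of 22.1 and 19.5 on their brightest probe set, and just inside were Dnajc13, Dnajb12 and Hspa1l, at 25.7, 29.6 and 29.7. The deposited signal of the others was 0.1 to 5.8 for Dnajb13, 0.1 to 5.5 for Dnajb3, 0.2 to 11.2 for Dnajb7, 2.0 to 10.7 for Dnajb8, 4.5 to 8.8 for Dnajc5b, 0.9 to 11.3 for Hspb2, 7.5 to 21.4 for Hspb3 and 0.1 to 4.5 for Hspb7. Dnajc11 ranged over 8.1 to 69.4. None was at 0 on an array.

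Calls among genes that work beside the members stand against a background of 5.98% to 7.35% of all genes called in each direction in the comparisons with sham. Of 27 cochaperones outside the rule that passed the filter, 1 was at least 2-fold higher and 1 lower after 7 shocks at 6 h, with Fkbp5, a glucocorticoid-inducible Hsp90 cochaperone, at 1.31 log2 and Stip1, which joins Hsp70 and Hsp90, at -1.13. After 7 shocks at 2 h there were 0 higher and 1 lower, Tomm70a (-1.04). After 1 shock at 6 h, Ttc4 (1.98) and Unc45a (1.27) were higher and Sgta (-1.43) lower. After 1 shock at 2 h, Sec63 (1.23) was higher and Ahsa2 (-1.24) lower. The 12 genes of the cytosolic chaperonin and prefoldin past the filter and the 10 of mitochondrial protein quality control gave 0 calls against sham in either direction, and at the shares of all genes given above lists of this size would hold fewer than 1 call in each direction.

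The shorter lists likewise gave 0 to 2 calls in each direction and comparison, to be read against the same 5.98% to 7.35% of all genes. Of 16 genes of folding in the endoplasmic reticulum and the unfolded protein response, Pdia4 was lower after 7 shocks at 6 h (-1.53) and after 1 shock at 6 h (-1.43). Hyou1 (1.04) and Creld2 (1.14) were higher after 7 shocks at 2 h, and Sdf2l1 (1.25) and Pdia6 (1.14) after 1 shock at 6 h. Of 10 other stress-inducible genes, Srxn1 and Gadd45b were higher after 7 shocks at 6 h (1.93 and 1.13) and after 1 shock at 2 h (1.73 and 1.17), while Txnrd1 was lower after 7 shocks at 2 h (-1.15) and Gclm after 1 shock at 6 h (-1.06). Of the heat shock factors and their regulators 4 passed the filter, and among them Crebbp, a histone acetyltransferase, gave the only call against sham (-1.05 after 1 shock at 2 h).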

How the data were processed

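RNA was measured in 5 pools, 1 array each. Per the submitters' processing notes the deposited intensity values were made with MAS5; no version or target is given there. The values are linear, 1 per probe set. Of 22690 probe sets, 64 controls, 691 with several symbols and 1555 with none were left out, leaving 20380. A pseudocount of 1.2 (10th percentile) was added and log2 taken. Probe sets in the top 50% by mean log2 were kept (10402 probe sets, 6650 genes), arrays were centred on their median, and a gene took its brightest kept probe set. There were 8 comparisons. The 4 with sham share an array. All 61 members matched RefSeq by gene ID. The number of arrays limits the precision. Named genes were those past 2-fold against sham, or in at least 2 of the 8 comparisons, with the same sign on most kept probe sets, plus textbook members, and for other lists those past 2-fold against sham. The members and lists were chosen with earlier results of these data known, and the endoplasmic reticulum stress element was added after values were seen. Alternatives were rescaling, pseudocount, filter and probe set rule. Scripts used Python 3.11.15, numpy 2.4.6 and pandas 2.3.3, and were tested on simulated data.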

Additional observations from a re-analysis of the deposited data

Results flagged for a closer look

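On its only probe set past the filter, the Dnajc18 difference of 6 h over 2 h had opposite signs. It was 1.36 log2 after 7 shocks and -1.40 after 1 shock, and the difference between the 2 was not tested. Its readings were dim on all 5 arrays, between 17.7 and 70.6. Member probe sets under the filter had deposited signals above their array's median and at least 4-fold above sham in 6 cases. Only members were searched, before scaling, so no share over all genes is known. The cases cannot be read as a trait of the members. A dimmer Dnajc18 probe set had deposited signals of 60.5 (7 shocks, 6 h) and 52.0 (7 shocks, 2 h), against 7.7 in sham. After 1 shock this probe set had 22.2 at 6 h and 5.1 at 2 h. It was thus higher at 6 h after 1 shock, where the probe set past the filter was lower. A Dnajc2 probe set had 32.1 after 7 shocks at 6 h, against 3.4 in sham. After 1 shock at 6 h, Hspa1b had 41.7 on 1 probe set against 2.9 in sham, Dnajc11 had 69.4 against 8.1, and a Dnajc3 probe set had 50.3 against 8.8.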

How the results depend on the processing

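Each group had 1 array, so none could be left out within a group, and no spread between pools is known. No paired analysis was possible because each group has 1 sample. Of 42 named differences past 2-fold, the alternatives gave 354 values, of which 320 were still past 2-fold in the same direction, 34 had the same direction below 2-fold and 0 were reversed. The counts of members higher or lower moved by over 1.5 times as follows, and the cause was not tested. Without rescaling, the higher counts were 10 (7 shocks 6 h over sham), 9 (7 shocks 2 h), 10 (1 shock 6 h), 2 (1 shock 2 h), 11 (7 shocks over 1 at 2 h) and 11 (6 h over 2 h after 1 shock), and the lower counts were 1 (7 shocks 2 h), 1 (1 shock 6 h), 2 (1 shock 2 h), 0 (7 shocks over 1 at 2 h) and 1 (6 h over 2 h after 1 shock). The shares of all genes without rescaling are given with the results above. With a pseudocount of 6.1, the higher counts were 1 (7 shocks 2 h) and 2 (1 shock 2 h), and the lower counts 1 (7 shocks 2 h), 1 (1 shock 6 h) and 1 (7 shocks over 1 at 2 h). Of all genes, 5.14% and 4.66% were higher and 5.68%, 6.27% and 5.81% lower in the same order. With no filter (61 members), the higher counts were 8 (7 shocks 6 h), 8 (7 shocks 2 h), 11 (1 shock 6 h), 8 (1 shock 2 h), 2 (7 shocks over 1 at 2 h), 10 (6 h over 2 h after 1 shock) and 4 (after 7), and the lower counts 2 (7 shocks 6 h), 5 (7 shocks 2 h), 2 (1 shock 2 h), 4 (7 shocks over 1 at 2 h), 7 (at 6 h) and 1 (6 h over 2 h after 7 shocks). With the brightest 25% (32 members), the higher counts were 0 for 7 shocks 6 h, 7 shocks 2 h and 1 shock 6 h over sham, 1 for 1 shock 2 h, 0 for 7 shocks over 1 at 6 h, 2 for 6 h over 2 h after 1 shock and 0 after 7, and the lower counts 0 (7 shocks 2 h), 0 (1 shock 2 h), 0 (7 shocks over 1 at 2 h), 1 (at 6 h) and 1 (6 h over 2 h after 1 shock). Of all genes that bright, 2.42% to 3.87% were higher and 2.36% to 4.61% lower over the 8 comparisons. With the mean of kept probe sets, 8 were higher after 1 shock at 2 h, and 1 (7 shocks 6 h), 0 (7 shocks over 1 at 2 h) and 1 (6 h over 2 h after 7 shocks) lower. Of all genes, 5.26% were higher, and 6.53%, 6.35% and 5.985% lower, in the same order. Without suffixed probe sets (42 members), 1 (7 shocks 6 h) and 2 (6 h over 2 h after 7 shocks) were lower, against 7.84% and 7.13% of all genes. Quantile normalization gave 1 lower after 7 shocks at 2 h, against 6.75% of all genes. Trimmed mean scaling gave 1 lower for 7 shocks over 1 at 2 h, against 6.54%. Leaving out the array of 1 shock at 6 h, an alternative chosen after seeing the data, kept 49 members, without Hspa1l and Dnajc13. It gave 2 higher and 1 lower after 7 shocks at 2 h, against 6.53% and 6.52% of all genes. Without that array Dnajc27 was 0.36 log2 above sham after 7 shocks at 2 h.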
